A study of Mus musculus with 6 samples.

Results

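The genes described here are 8 receptors that guide B cells between bone marrow, blood and lymphoid tissue: Cxcr5, Cxcr4, Cxcr3, Ccr6, Ccr7, Ccr9, S1pr1 and Gpr183. They were picked by symbol from the deposited expression table, and all 8 were found among its 21448 genes. RNA was measured in cultured primary lymphoma B cells of E mu-Myc transgenic mice, whose Myc transgene is driven by an immunoglobulin enhancer. A group of 3 libraries is labelled PRDM15 KO and is called the knockout group here, and a group of 3 is labelled wild type. Both groups carry the Myc transgene and grew in medium with IL7. Per the labels' protocols, 4-hydroxytamoxifen at 50 nM was used to delete PRDM15 and ethanol was the control, each for 24 hours, with collection on day 3 after the exposure. No label says which library received which agent, so tamoxifen and deletion cannot be told apart here. The sources used here do not give the mouse each library came from, the Cre driver or the age of the mice.

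Chemokine receptors are seven-pass membrane proteins that couple to inhibitory G proteins and steer a cell up a gradient of their ligand. Immature B cells are held in bone marrow largely through CXCR4, and CXCR5 comes on as B cells mature and enter follicles. S1PR1 and GPR183 are lipid receptors of the same superfamily: S1PR1 senses sphingosine 1-phosphate and drives exit into blood and lymph, and GPR183 senses oxysterols and places B cells at the edges of follicles.

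Values are reads of a gene scaled to an effective library size (RPM, not divided by gene length), with 28852951 to 47255421 reads assigned to genes in a library. Libraries of the same replicate number varied together, so each gene was compared both without the number (unpaired) and with it as a block (paired), with limma on log2(value + 1). The words rose and fell are used only of genes whose Benjamini-Hochberg adjusted p over all 10533 tested genes was under 0.05 in either fit. The unpaired fit called 0.00949% of the tested genes and the paired fit 0.873%. The B cell marker Cd79b had high values in every library, and the summed level of 8 B cell markers was 1400 to 1479 in the knockout libraries and 1380 to 1562 in the wild type libraries. Summed levels of 15 myeloid markers were 34.1, 2128 and 1150 in replicates 1, 2 and 3 of the knockout group, against 53.9 to 198 in wild type. Lyz2 and Mpeg1 were the highest of them. Prdm15 itself was at 40.2, 40.9 and 39.2 in the knockout libraries, against 29.2, 47.3 and 41.3 in the wild type libraries. Reads summed over a gene cannot reveal the loss of an exon, so the groups are known by their labels alone.

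Of the 8 receptors, 4 were expressed and 4 were barely detected. Cxcr4, Ccr7, S1pr1 and Cxcr5 had mean values of 22.1 to 167.0 over the 6 libraries. Cxcr3, Ccr6, Ccr9 and Gpr183 had mean values of 0.0832 to 0.285, with 0 to 23 reads in any library, and were under the filter of a mean of at least 1 that a gene had to reach to be tested. Of the 4 tested receptors, 1 fell in the paired fit, Cxcr5, and 0 passed in the unpaired fit, where 1 had an unadjusted p under 0.05, as 4.06% of all tested genes did. The median log2 change of the 4 was 0.18, against -0.03 over all tested genes.

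Divided by the length of each gene's merged exons, the levels were led by Cxcr4, at 99.6 per kb in the knockout group and 85.2 per kb in the wild type group. Ccr7 followed with 11.8 and 10.5 per kb, S1pr1 with 10.3 and 8.71 per kb, and Cxcr5 with 5.39 and 10.8 per kb, each with the knockout group first. Cxcr5 was therefore the lowest of the 4 by mean level per kb in the knockout group and stood next after Cxcr4 in the wild type group. The lowest Cxcr4 library, at 72.4 per kb, lay above the highest library of any other member, S1pr1 at 23.6 per kb. The ranges of Ccr7 (6.05 to 18.9 per kb), S1pr1 (2.403 to 23.6) and Cxcr5 (3.35 to 14.1) overlapped, so these neighbours did not differ beyond the spread of the libraries. Gpr183 (mean 0.0813 per kb over the 6 libraries), Cxcr3 (0.0758), Ccr6 (0.0359) and Ccr9 (0.0278) came last, and their ranges overlapped as well.

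Cxcr5, the receptor for CXCL13 and the entry signal for B cell follicles, fell in the knockout libraries by about the same proportion in each pair. It was at 16.2, 26.5 and 11.2 in replicates 1, 2 and 3 of the knockout group, against 38.0, 47.1 and 22.6 in wild type replicates 1, 2 and 3. Each knockout library was lower than the wild type library of its number, while the groups overlapped, because knockout replicate 2 lay above wild type replicate 3. The knockout value was 0.426, 0.564 and 0.494 times the wild type value in pairs 1, 2 and 3. The means were 18.0 ± 7.83 in the knockout group and 35.9 ± 12.4 in the wild type group (SD, n = 3 each), a log2 change of -0.98.

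In the paired limma fit the Cxcr5 change had a standard error of 0.094, a 95% interval of -1.22 to -0.74 and an adjusted p = 0.0330. In the unpaired limma fit the standard error was 0.38, the interval -1.91 to -0.056 and the adjusted p = 0.9998, with an unadjusted limma p of 0.0409. Of all tested genes, 0.741% were called lower in the paired fit, and 29.9% were lower in all 3 pairs. Count tests on the recovered reads with the pairs called Cxcr5 as well: edgeR's quasi-likelihood test gave a log2 change of -1.02 (adjusted p = 0.0429, with 0.418% of genes called) and DESeq2 gave -0.999 (adjusted p = 1.46e-10, with 7.01% called). The paired limma call was lost without pair 2 (adjusted p = 0.1945) and without pair 3 (adjusted p = 0.171), when the log2 change was -1.07 and -0.99. Each library held 471 to 1877 Cxcr5 reads, so counting error was 2.31% to 4.61% of a value.

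The pairs differed in their myeloid transcripts. The log2 change of Cxcr5 was -1.18 in pair 1, where the myeloid sum was 34.1 in the knockout library and 53.9 in the wild type library. It was -0.80 in pair 2, with a myeloid sum of 2128 in knockout and 198 in wild type, and -0.96 in pair 3, with 1150 in knockout and 156 in wild type. The part of these transcripts in the Cxcr5 values was not tested.

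**Figure D1:**
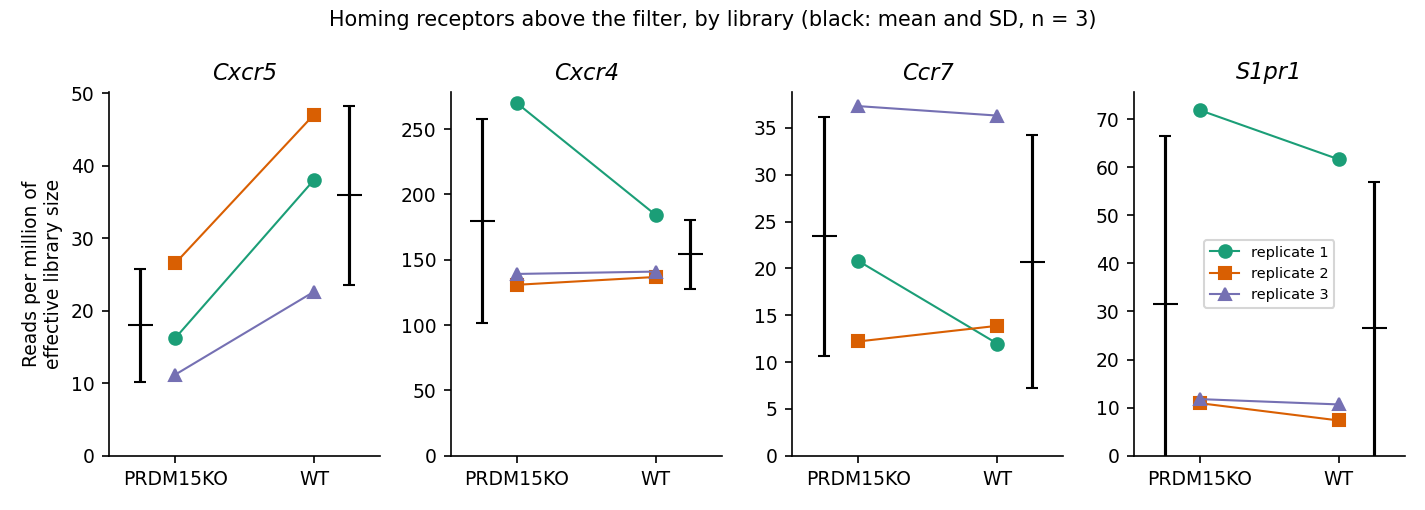
Level of Cxcr5, Cxcr4, Ccr7 and S1pr1 (vertical axes from 0, RPM of effective library size) in the knockout and wild type libraries; each line links a pair of equal replicate number, and black marks give the mean with SD (n = 3; cut off at 0 where longer). All 3 Cxcr5 lines lead to a lower knockout value, while replicate 1 stands apart in both groups for S1pr1, at 71.8 in knockout and 61.6 in wild type.

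Cxcr4, the receptor for CXCL12 that holds B cell precursors in the marrow, was the most abundant member and did not pass the test. It was at 270.0, 130.8 and 139.1 in replicates 1, 2 and 3 of the knockout group, against 184, 137 and 141 in wild type replicates 1, 2 and 3. Replicate 1 was the highest in both groups and the only number at which the pair differed by more than a few percent, with a knockout value 1.46 times the wild type value. In pairs 2 and 3 the knockout value was 0.956 and 0.987 times the wild type value. The log2 change was 0.16, with a paired 95% interval of -0.18 to 0.49 (limma paired adjusted p = 0.526, unpaired adjusted p = 0.9998). Without knockout replicate 1 it was -0.18 in the unpaired fit, so the direction rests on that library. In the replicate block without pair 1 it was -0.041.

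The promoter of Cxcr4 is shown because it belongs to the member with the highest level, and that of Ccr6 as a member with 0 to 8 reads in a library. RefSeq windows of GRCm38.p6 were at hand for Cxcr4, Cxcr3, Ccr6, Ccr9 and Gpr183. Only the 250 bases before the start are used, and coordinates are on GRCm38.p6, not on the mm9 build that the submitters' processing notes name. The Cxcr4 stretch is chr1:128592300-128592549 on the minus strand, with the palindrome CGCATGCG, the core of the site that nuclear respiratory factor NRF1 is known to bind, in capitals. The Ccr6 stretch is chr17:8235793-8236042 on the plus strand, with the octamer ATGCAAAT, the motif of the OCT factors of B cells, in capitals as its reverse complement ATTTGCAT.
Cxcr4: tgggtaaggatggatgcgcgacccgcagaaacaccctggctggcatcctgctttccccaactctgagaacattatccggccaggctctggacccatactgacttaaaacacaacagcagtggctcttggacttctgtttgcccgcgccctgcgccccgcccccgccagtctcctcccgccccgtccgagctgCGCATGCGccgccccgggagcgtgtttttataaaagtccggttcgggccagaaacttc
Ccr6: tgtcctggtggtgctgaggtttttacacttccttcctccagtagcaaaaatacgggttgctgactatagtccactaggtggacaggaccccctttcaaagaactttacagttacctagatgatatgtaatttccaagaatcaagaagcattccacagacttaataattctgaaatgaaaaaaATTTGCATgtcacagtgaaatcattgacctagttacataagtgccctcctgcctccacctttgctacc
The NRF1 palindrome lay 58 to 51 bases before the Cxcr4 start and was present in 1.55% of 32851 mouse windows of this length. The octamer lay 68 to 61 bases before the Ccr6 start and was present on either strand in 1.60% of windows. The Cxcr4 stretch also held TATAAA (12.4% of windows, both strands) and CCGCCC (32.7%). None of these 4 motifs nor the E-box CACGTG (6.02%) was found in the stretches of Cxcr3, Ccr9 and Gpr183 or at the other Ccr6 start. The Cxcr4 stretch had 19 CG dinucleotides, against 1 to 7 in those of the barely detected members and a median of 6 over all windows. These motifs were picked after the sequences were seen, and a match describes letters only.

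Ccr7, the receptor for CCL19 and CCL21 that leads cells to T cell zones, followed the replicate number and not the group. It was at 20.8, 12.2 and 37.3 in replicates 1, 2 and 3 of the knockout group, against 12.0, 13.9 and 36.3 in wild type replicates 1, 2 and 3. Replicate 3 was the highest in both groups, and pairs 2 and 3 lay close together. The log2 change was 0.21, with 0.75, -0.17 and 0.04 in pairs 1, 2 and 3 and a paired 95% interval of -0.27 to 0.68 (limma paired adjusted p = 0.558, unpaired adjusted p = 0.9998). Its sign turned when wild type replicate 1 (-0.082) or knockout replicate 3 (-0.19) was left out.

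S1pr1, which takes lymphocytes out of tissue toward sphingosine 1-phosphate in blood, varied far more between replicate numbers than between groups. Knockout replicates 1, 2 and 3 were at 71.8, 10.9 and 11.8, against 61.6, 7.32 and 10.7 in wild type replicates 1, 2 and 3. The knockout library was the higher of its pair each time, by 1.17, 1.49 and 1.10 times, and 16.7% of all tested genes were higher in all 3 pairs. The log2 change was 0.29, with a paired 95% interval of 0.033 to 0.54 that is not adjusted for the number of genes, and it did not pass (limma paired adjusted p = 0.210, unpaired adjusted p = 0.9998). An unadjusted paired p under 0.05 was reached by 21% of tested genes. With the pairs ignored, leaving out wild type replicate 2 or 3 turned the sign, to -0.28 and -0.034, and leaving out knockout replicate 1 gave -0.57. With the replicate block, the log2 change stayed positive without pair 1, 2 or 3, at 0.32, 0.17 and 0.37, and passed in none of these fits.

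The replicate number accounted for 98.2% of the sum of squares of S1pr1 over the 6 libraries, 88.7% of that of Ccr7 and 81.2% of that of Cxcr4, against a median of 74.5% over all tested genes. Cxcr5 was at 45.1%. The group accounted for 53.5% of the sum of squares of Cxcr5, against 4.45% for Cxcr4, 2.41% for Ccr7 and 1.34% for S1pr1, with a median of 9.56% over all tested genes. The group share of Cxcr5 was at percentile 90.7 of the tested genes. The summed level of 8 markers of immature B cells, Igll1 and Vpreb3 being the highest, was 382 in knockout replicate 1 and 495 in wild type replicate 1, against 1125 to 1254 in the other libraries. Of the 8, 6 were lowest at replicate 1 in both groups. The others, Rag1 and Rag2, were highest at replicate 1 in knockout and lowest there in wild type: Rag1, named after its values were seen, was at 18.1, 4.11 and 4.69 in replicates 1, 2 and 3 of the knockout group, against 0.721, 1.78 and 2.85 in wild type. Vpreb3 differed less between the numbers, at 180, 211 and 292 in knockout, against 178, 216 and 318 in wild type. Their part in the levels of S1pr1 and Cxcr4 was not tested. In bulk RNA, fewer cells of a type and less RNA per cell cannot be told apart.

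**Figure D2:**
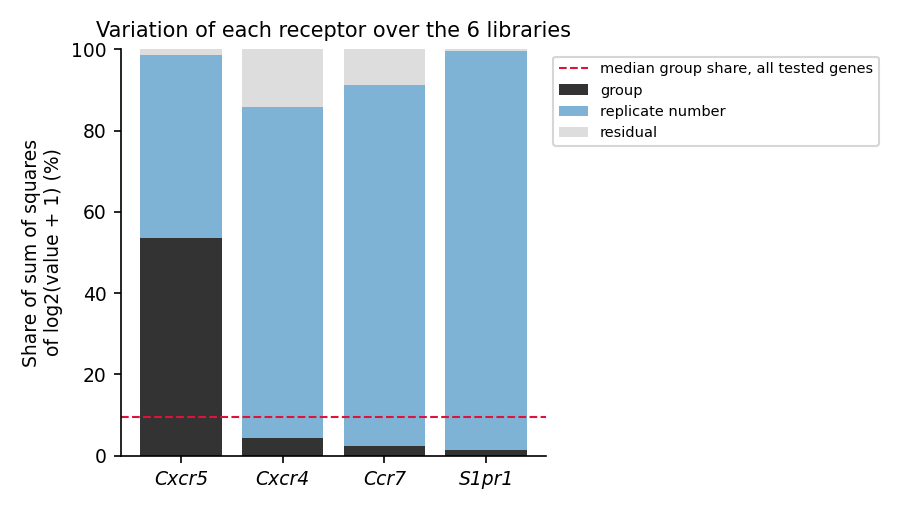
Share of the sum of squares of log2(value + 1) over the 6 libraries (vertical axis, %) that goes with the group, the replicate number and the residual for each of the 4 tested receptors; the dashed line is the median group share of all tested genes, 9.56%. The group share was 53.5% for Cxcr5 and under 5% for Cxcr4, Ccr7 and S1pr1.

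Set against the other expressed receptors within each library, Cxcr5 was lower in the knockout library of every pair. The log2 ratio of Cxcr5 to Cxcr4 was lower in knockout than in wild type by amounts of -1.78, -0.76 and -0.999 (knockout minus wild type) in pairs 1, 2 and 3. The same difference was -2.03, -0.64 and -1.06 for Cxcr5 over Ccr7, and -1.45, -1.40 and -1.16 for Cxcr5 over S1pr1. These ratios do not depend on the scaling of the libraries, and they were not tested. They also move with the other receptor, as the shares of the summed level below do. In pair 1, Cxcr4 and Ccr7 were themselves higher in knockout, by log2 differences of 0.55 and 0.75, while Cxcr5 differed by -1.18. Cxcr5 made up 4.28%, 14.7% and 5.60% of the summed level of the 4 expressed receptors in replicates 1, 2 and 3 of the knockout group, against 12.9%, 22.9% and 10.7% in wild type replicates 1, 2 and 3.

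**Figure D3:**
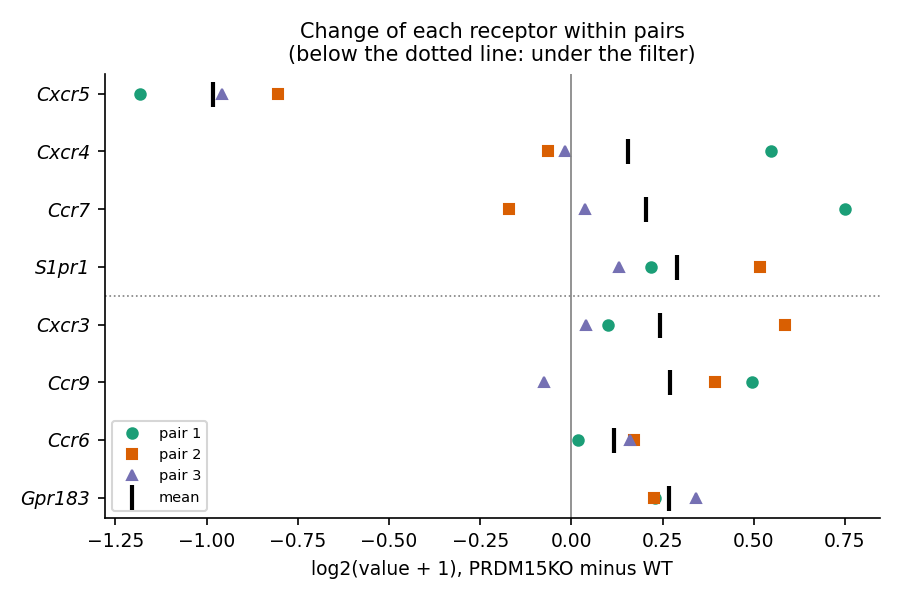
Difference in log2(value + 1), knockout minus wild type (horizontal axis), for each of the 8 receptors, with a symbol per replicate pair and a black bar for the mean. Cxcr5 lies between -1.18 and -0.80 and is the member furthest from 0 on this scale. The scale compresses the changes of the 4 members under the dotted line, which rest on 0 to 23 reads in a library.

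The remaining receptors were at or near the limit of detection, and a single read was worth 0.0214 to 0.0333 of the value scale. Cxcr3, the receptor for interferon-induced chemokines and best known from effector T cells, had 3, 20 and 4 reads in replicates 1, 2 and 3 of the knockout group, against 1, 0 and 3 reads in wild type replicates 1, 2 and 3. Most of the knockout reads came from replicate 2. Ccr9, the receptor for CCL25 that directs cells to the gut and thymus, had 18, 23 and 3 reads in the knockout libraries, against 5, 8 and 6 in the wild type libraries, and the groups overlapped. T cell markers differed between the libraries as well, and not all one way. Cd8a, named after its values were seen, was at 0.765, 5.14 and 0.0237 in replicates 1, 2 and 3 of the knockout group, against 0.134, 0.175 and 0.0642 in wild type. Of 9 T cell markers 7, 8 and 6 were higher in the knockout library of pairs 1, 2 and 3, none was at 0 in all libraries, and Cd3e and Cd4 stayed under 1 in each. Their summed level was 20.0 to 74.7 in knockout and 26.6 to 84.3 in wild type, most of it from Lck, followed by Thy1. Lck was lower in knockout in all 3 pairs, by log2 differences of -0.69, -0.08 and -0.13, and Thy1 was mixed, with -0.07, 0.36 and -0.79. Their part in the Cxcr3 and Ccr9 reads was not tested.

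Ccr6, the receptor for CCL20 found on mature B cells, had 2, 5 and 8 reads in the knockout libraries, against 2, 0 and 3 in the wild type libraries. Gpr183, also called EBI2, had 8, 15 and 17 reads in the knockout libraries, against 3, 7 and 5 in the wild type libraries. Its values were 0.266, 0.376 and 0.403 in knockout, against 0.0801, 0.175 and 0.107 in wild type, so every knockout library was above every wild type library. The same held for Cxcr3 and Ccr6, and for 4.36% of the 9996 genes under the filter that had a read. For Ccr6 it rests on the scaling to library size: knockout replicate 1 was at 0.0665 with 2 reads and wild type replicate 3 at 0.0642 with 3 reads. For Cxcr3 these libraries had 3 reads each, so its separation rests on the scaling as well. The exact two-sided permutation test over the 6 libraries gave p = 0.1 for Cxcr3, Ccr6 and Gpr183, the smallest that 3 against 3 can give, and p = 0.4 for Ccr9. Fitted without the filter, Gpr183 had a log2 change of 0.27 (95% interval 0.12 to 0.41) and did not pass with limma (adjusted p = 0.9999, paired adjusted p = 0.191). A pseudocount of 1 compresses changes at these levels.

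**Figure D4:**
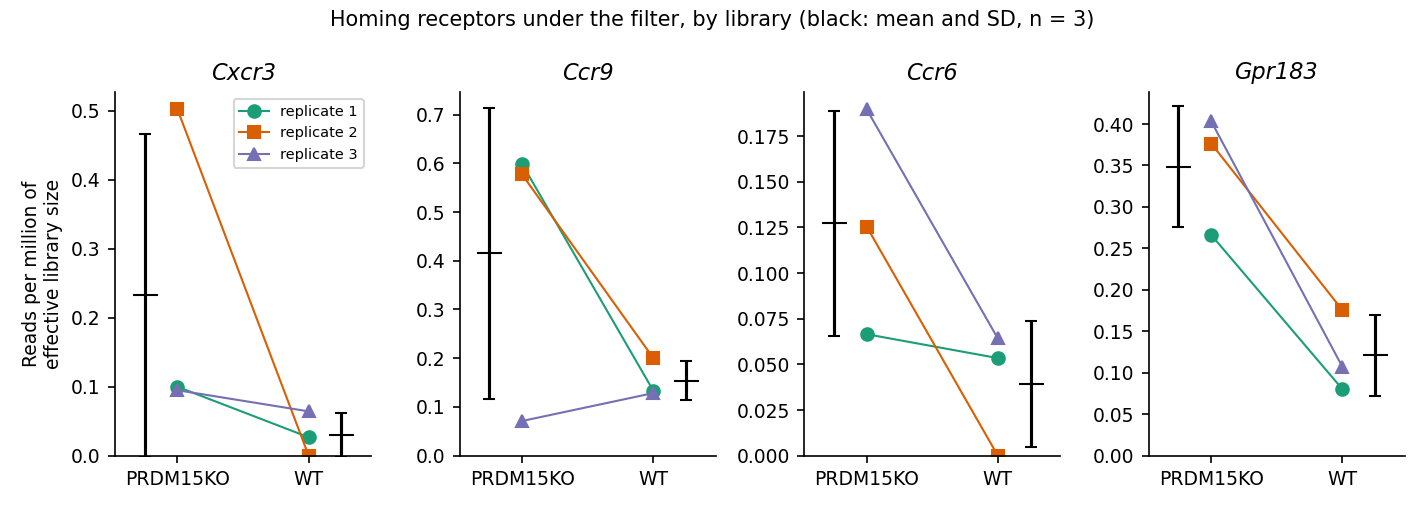
Level of Cxcr3, Ccr9, Ccr6 and Gpr183 (vertical axes from 0, RPM of effective library size) in the knockout and wild type libraries; each line links a pair of equal replicate number, and black marks give the mean with SD (n = 3; cut off at 0 where longer). The highest value, 0.599 for Ccr9 in knockout replicate 1, stands for 18 reads.

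Around these receptors, 7 lists of migration genes were read from the same fits: other chemokine receptors, chemokine ligands, other lipid receptors, enzymes of the lipid ligands, regulators of homing receptors, G protein and migration signalling, and adhesion molecules. Of their 131 genes in the table, 88 were tested and 0 passed with limma, paired or unpaired. At an unadjusted paired p under 0.05 there were 21 genes, 13 higher and 8 lower, which is 23.9% of them against 21% of all tested genes. Paired edgeR called 0, against 0.418% of all tested genes. Paired DESeq2 called 10, 5 higher and 5 lower, or 11.4% against 7.01% of all tested genes. At an unadjusted unpaired limma p under 0.05 there were 3 of the 88, against 4.06% of all tested genes.

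Most other chemokine receptors were under the filter: 5 of 18 were tested, with a median log2 change of 0.52. Ccr1, a receptor of myeloid cells, was highest in knockout replicates 2 and 3, where the myeloid markers were high. It was at 0.432, 11.2 and 5.17 in replicates 1, 2 and 3 of the knockout group, against 1.496, 3.18 and 1.20 in wild type. The log2 change was 0.52 for Ccr2, with -0.16, 1.47 and 0.26 in pairs 1, 2 and 3. For Ccrl2 it was 0.14, with -0.43, 0.45 and 0.41 in these pairs. Of 18 ligands in the table, 3 were tested, with a median of 1.47. Of the chemokine ligands of the expressed receptors, Cxcl12 had 36 reads in all 6 libraries, Cxcl13 had 2 and Ccl19 had 0. Ccl21a, which encodes the CCR7 ligand CCL21, matched no row, so its level is not known. Ccl6, a chemokine of myeloid cells, was at 1.83, 143 and 41.6 in knockout, against 8.04, 15.8 and 4.43 in wild type. Ccl9, another, was at 4.39, 19.3 and 7.45 in knockout, against 3.42, 3.21 and 1.31 in wild type, without overlap (limma paired adjusted p = 0.1505, DESeq2 paired 0.00264). Ccl25 had a log2 change of 0.12. The part of the myeloid transcripts in these values was not tested.

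Among the lipid receptors, 8 of 12 were tested, with a median log2 change of 0.05. The prostaglandin receptor Ptger4 had the smallest unpaired p, at 35.7, 30.8 and 40.0 in knockout, against 39.0, 52.6 and 70.1 in wild type (log2 change -0.56, limma paired adjusted p = 0.148, DESeq2 paired 0.0276). S1pr2, which confines B cells to germinal centres, had a log2 change of 0.27, with -0.25, 0.65 and 0.41 in pairs 1, 2 and 3. Gpr18 had a log2 change of 0.42 and was higher in all 3 pairs, and Gpr132 had -0.09 with mixed pairs. Of the enzymes, 6 of 10 were tested (median 0.16). Sgpl1, the lyase that degrades sphingosine 1-phosphate, had a log2 change of 0.57, with -0.04, 1.20 and 0.55 in pairs 1, 2 and 3. Plpp3 (0.59) had -0.28, 1.71 and 0.33 in these pairs, and Hsd3b7 (0.26) had -0.14, 0.70 and 0.22. The kinase Sphk2 had a log2 change of 0.06. S1pr2, Sgpl1, Plpp3 and Hsd3b7 were lower in pair 1 and higher in pairs 2 and 3, as the myeloid sum was. The part of the myeloid transcripts in them was not tested.

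Of 11 regulators, 10 were tested, with a median of 0.01. CD69 binds S1PR1 and takes it off the cell surface, and Cd69 was at 4.12, 4.79 and 7.07 in knockout, against 1.52, 3.18 and 4.47 in wild type, higher in all 3 pairs (log2 change 0.68, limma paired adjusted p = 0.136). Foxo1, a transcription factor of B cell development and homing, had a log2 change of 0.42 (limma paired adjusted p = 0.221), Pax5, the B lineage factor, of -0.27, and Pou2f2, which encodes OCT2, of -0.39. None of them passed. Klf2, a direct activator of S1pr1 in T cells and named after its values were seen, was at 22.3, 9.46 and 6.64 in knockout, against 19.3, 15.0 and 16.2 in wild type, without passing.

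In the signalling list 40 of 44 genes were tested, with a median log2 change of 0.06. Among its genes with the smallest unpaired p were Rgs16, Rgs1 and Rgs14, regulators of G protein signalling, which shorten the response of chemokine receptors. Rgs16 was at 6.59, 1.83 and 1.21 in knockout, against 1.66, 0.226 and 0.235 in wild type, higher in all 3 pairs (log2 change 1.19, limma paired adjusted p = 0.0840). The pseudocount of 1 compresses changes at such low values, and paired edgeR gave Rgs16 a log2 change of 2.39 (adjusted p = 0.0634). Rgs14 was lower in all 3 pairs, at 11.4, 15.7 and 20.8 in knockout, against 16.1, 21.7 and 28.3 in wild type (log2 change -0.44, limma paired adjusted p = 0.0694). Rgs1 had a log2 change of 1.12, with -0.11 in pair 1, and Dock2, a guanine exchange factor needed for lymphocyte migration, of -0.14.

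In the adhesion list 16 of 18 genes were tested, with a median of 0.07. Cd22, a sialic acid binding inhibitor of the B cell receptor, was at 62.7, 39.3 and 24.6 in knockout, against 98.7, 125 and 56.2 in wild type, lower in all 3 pairs (log2 change -1.15, limma paired adjusted p = 0.0713). Selplg, the ligand of selectins, was lower in all 3 pairs (log2 change -0.53, adjusted p = 0.141), and Itga4, the integrin alpha 4 chain, higher in all 3 (0.34, adjusted p = 0.0840), both in paired limma. Paired DESeq2 called Cd22, Selplg, Itga4, Rgs14 and Rgs16, and edgeR did not. Cd44, a hyaluronan receptor, had a log2 change of 0.15.

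**Figure D5:**
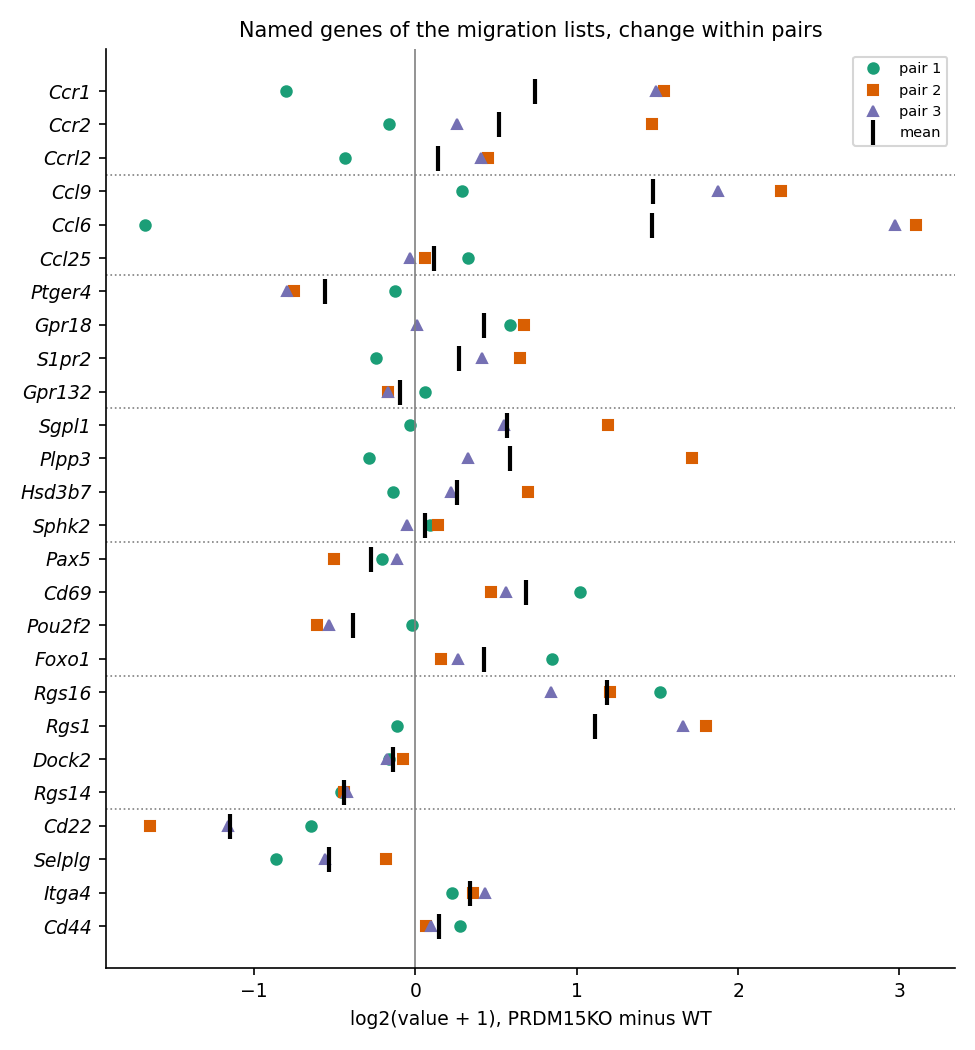
Difference in log2(value + 1), knockout minus wild type (horizontal axis), for the named genes of the 7 migration lists, with a symbol per replicate pair, a black bar for the mean and dotted lines between lists. Ccr1 and Ccl6 lie under 0 in pair 1 and over 0 in pairs 2 and 3, while Rgs14 and Cd22 lie under 0 in each pair. The scale compresses the changes of genes with low values, such as Rgs16.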

How the data were processed

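The 6 libraries were profiled by RNA-seq. Tools named in the submitters' processing notes, without their roles, are edgeR, HTSeq, CASAVA and STAR 2.4.2a, and the build named there is mm9. The annotation and the strand setting of counting are not stated, so reads of overlapping antisense genes cannot be set apart. The deposited table is named for FPKM, but the deposited values are a signal, reads divided by an effective library size: 100% of values in each library came out as whole reads within 0.01, so none was divided by gene length. Exon lengths were taken from GENCODE M21, by Ensembl ID.

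Tests used limma 3.58.1 with a trended prior in R 4.3.3, two-sided, on log2(value + 1), for genes with a mean of at least 1, unpaired as the planned design and with the replicate number as a block. The labels do not state a pairing. Deviations from group means correlated at 0.733, 0.726 and 0.837 between libraries of equal number, so the numbers were taken to pair them. Per the series' text the 3 libraries of each group are biological replicates; separate mice are not stated, so p-values rest on the spread of these libraries, which may in part be technical. edgeR 4.0.16 and DESeq2 1.42.0 were run on recovered reads. Chi-square over degrees of freedom between libraries of a group was 85.8 or more, so none was a resequencing of another library of its group. This measure cannot tell separate mice from separate cultures or preparations of the same lymphoma. Fits were tested on simulated counts with known changes and an effect shared by equal replicate numbers. The simulation held no myeloid differences between libraries, so it checks the code and not these results. Intervals and counting errors cover what they name only. The receptors, lists and tests were chosen with earlier results of these data known. Named genes are all members, list genes past the threshold or among the 4 smallest unpaired p, the 2 highest markers per list, Prdm15, and the 2 genes most like each tested member. Of 219 list entries, 2 matched no row, Ccl21a and Trac. Some genes that this rule names are not reported here. Plots used Python 3.11.15 and matplotlib 3.10.9. Predicted genes and members were left out of the genes most like a member.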

Additional observations from a re-analysis of the deposited data

How the results depend on the processing

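Cxcr5 kept a negative log2 change in all 20 alternatives, between -1.29 and -0.70. With the replicate block the count of called receptors was 1 in limma, edgeR and DESeq2; leaving out each replicate pair in turn gave 1 without pair 1 (adjusted p = 0.001785) and 0 otherwise. Without the block it was 0 in every alternative run. The count of all called genes was 1 in the main fit, 92 with the replicate block, 44 with edgeR and 738 with DESeq2 in that blocked design, and 0 with edgeR (553 at an unadjusted p under 0.05) and 110 with DESeq2 without it. It was 0 with a pseudocount of 0.1, without the filter and under quantile normalization, 2 with a minimum mean of 5, and 0 without both knockout libraries 2 and 3, where the single knockout library left is assumed to vary as wild type does. Leaving out replicates gave 0 to 840 called genes, the highest for the replicate block without pair 1. With a replicate left out, Ccr7 lay between -0.19 and 0.68, Cxcr4 between -0.18 and 0.34 and S1pr1 between -0.57 and 1.18. Signs turned for Ccr7 (-0.19 without knockout replicate 3, -0.082 without wild type replicate 1, -0.067 in the block without pair 1), Cxcr4 (-0.18 without knockout replicate 1, -0.041 in the block without pair 1) and S1pr1 (-0.57, -0.28 and -0.034 without knockout replicate 1, wild type replicate 2 and wild type replicate 3); the cause was not tested. The S1pr1 signs turned only with the pairs ignored, and in the block S1pr1 was at 0.32, 0.17 and 0.37 without pairs 1, 2 and 3. Depth limits Cxcr3, Ccr6, Ccr9 and Gpr183, where a library with 0 reads allows up to 3.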

Other observations

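The genes whose log2 values were most like those of each tested receptor over the 6 libraries, among 8000 genes with a mean of at least 10, are given as a description of patterns that share libraries and depth. Cxcr5 was closest to Atg9b (Pearson r = 0.996) and Camkv (r = 0.995). Camkv was at 32.8, 46.9 and 23.9 in replicates 1, 2 and 3 of the knockout group, against 66.2, 87.7 and 41.6 in wild type replicates 1, 2 and 3, lower in each pair. Cxcr4 was closest to the mitochondrially encoded CYTB and ND2, which were highest in knockout replicate 1: CYTB was at 3618, 737 and 829 in knockout, against 1540, 737 and 759 in wild type. S1pr1 was closest to Mcl1 and Rtca, with Mcl1, a survival factor of the BCL2 family, at 437, 259 and 267 in knockout, against 418, 243 and 262 in wild type, highest at replicate 1 in both groups. Ccr7 was closest to Alkbh4 and Chtf18. Each correlation is over 6 points only and was not tested.

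Some migration genes outside the naming rule had large values and are given after these were seen. Cxcr6, a receptor best known from T and NK cells, was at 0.865, 2.13 and 0.190 in knockout, against 0.214, 0.125 and 0.107 in wild type, under the filter. Cd9, a tetraspanin shared by B cells and macrophages, was at 0.931, 41.5 and 23.0 in knockout, against 2.14, 4.01 and 6.72 in wild type; it was higher only in pairs 2 and 3, where the myeloid sum was high, and its share from those cells was not tested.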
